A study of Malus domestica with 18 samples.

Results

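The effect of a short nitric oxide (NO) treatment was followed in the embryonic axes of apple (Malus domestica Borkh.) seeds after the mildest accelerated aging of the study, 7 days. The comparison took in 6 of the 18 samples, namely 3 NO-treated and 3 control samples, chosen by their labels alone. Dry seeds were kept in moist sand at 33°C for 7 days. Isolated embryos were then either left untreated (control) or exposed for 3 h to the vapor over NaNO2 (14.5 mM) mixed with HCl (0.2 M), which gives off NO (NO). Both groups were cultured on water for 48 h before the axes were cut off, so every sample had passed through aging, isolation and culture. Axes of seeds aged for 14 and 21 days, treated in the same way with 3 samples a group, also entered the fit, where they contributed to each gene's estimate of spread, and showed where the response at 7 days differed. The labels name no cultivar, and non-aged seeds were not analysed here.

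RT-qPCR was used to measure the transcript levels of 18 target genes beside 2 reference genes, Sar1 and Pdi. In this assay the quantification cycle (Cq) is lower when more template is present. The deposited relative expression is a ratio whose control mean is close to 1 at each aging time. In axes taken as a whole, less transcript per cell and fewer cells that hold it cannot be told apart.

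The target genes cover protein quality control and growth. Tor is a serine/threonine kinase that acts together with its partner Raptor to promote translation and growth when nutrients allow, and Saur belongs to a family of small auxin-induced genes. ClpB proteins pull proteins out of aggregates, Hsp90 and Hsp70 refold and hold client proteins, small Hsp20 proteins keep unfolded proteins soluble, and Cpn60 forms the folding chamber of mitochondria. Pimt repairs damaged aspartyl residues of aging proteins, and Lea proteins accumulate in maturing seeds and protect cell structures when water is lost. Nitric oxide is a signal known to release the dormancy of apple embryos.

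The primers of the genes on which the results below turn are shown first, since in RT-qPCR they define which transcripts are measured. All are in lower case, written 5′ to 3′, with the forward primer of each gene before the reverse. Their places in the apple genome were not determined here. The study lists multiple apple gene identifiers for Tor, Raptor, ClpB4, Cpn60a and Pimt, so these signals may not come from a single gene. Over all 20 genes the 40 primers were 17 to 26 bases long.
Tor forward: atctggtggagcagctttgc
Tor reverse: tcgttataccgttctgcatcac
Raptor forward: tgaatgctgttgtggattgg
Raptor reverse: gctacaatctgatgaagaagg
ClpB4 forward: gcagttctctcagacagatacattac
ClpB4 reverse: tcggtctacctcatccaact
Hsp70b forward: atcaccaacgacaagggca
Hsp70b reverse: ctttgcctccaccttcttct
Hsp70c forward: caatgatgctcagagacagg
Hsp70c reverse: accaccaagatcaaatacagc
Cpn60a forward: acatctgaagaaatagctcagg
Cpn60a reverse: cattccttcaacgacctccaa
Cpn60b forward: gcagagcattgatgataagcac
Cpn60b reverse: gtgttcccatcagcaacagta
Pimt forward: gatggtggatcatttgaagag
Pimt reverse: ctatcaatagtctccatcacttcag
Sar1 forward: ttgatttgggcgggcatcagattg
Sar1 reverse: tcatcagagaggagagcatccagc
Pdi forward: tgctgtacacagccaacgat
Pdi reverse: catctttagcggcgttatccttg

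NO and control were compared on log2 of the relative expression with limma, over all 18 samples in 6 groups, with Benjamini-Hochberg adjustment across the 18 targets (threshold 0.05). At 7 days, 6 of 18 genes (33.3%) passed the threshold. The transcript levels of Pimt, ClpB4 and Hsp70c were higher after NO (3 of 18, 16.7%), and those of Tor, Raptor and Cpn60b were lower (3 of 18, 16.7%). The same 6 genes were those with an unadjusted p under 0.05. On levels re-derived from the cycles as described below, 8 of 18 genes (44.4%) passed, 4 higher and 4 lower (22.2% each), with Hsp70b and Lea1 added to the same 6. On deposited values the median log2 fold change over the 18 genes was 0.12, and only Tor and Raptor differed by more than 2-fold.

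In 7 genes (38.9%) all NO samples lay above all control samples, and in 3 genes (16.7%) all lay below. On re-derived levels all lay above in 4 genes (22.2%), Pimt, ClpB4, Hsp70b and Hsp70c, and below in the same 3 genes (16.7%). Lea2a, Lea2b, Lea4 and Cpn60a, which did not overlap on deposited values, overlapped there. With 3 samples a side, the exact permutation test of a single gene cannot give a p under 0.1, so the calls were made with limma. When only the 6 samples of 7 days were fitted, all 6 calls stayed and Lea1 (lower, adjusted p = 0.0300) and Lea2a (higher, adjusted p = 0.0345) were added. Each log2 fold change had a 95% interval reaching between 0.22 and 0.46 to either side.

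**Figure D1:**
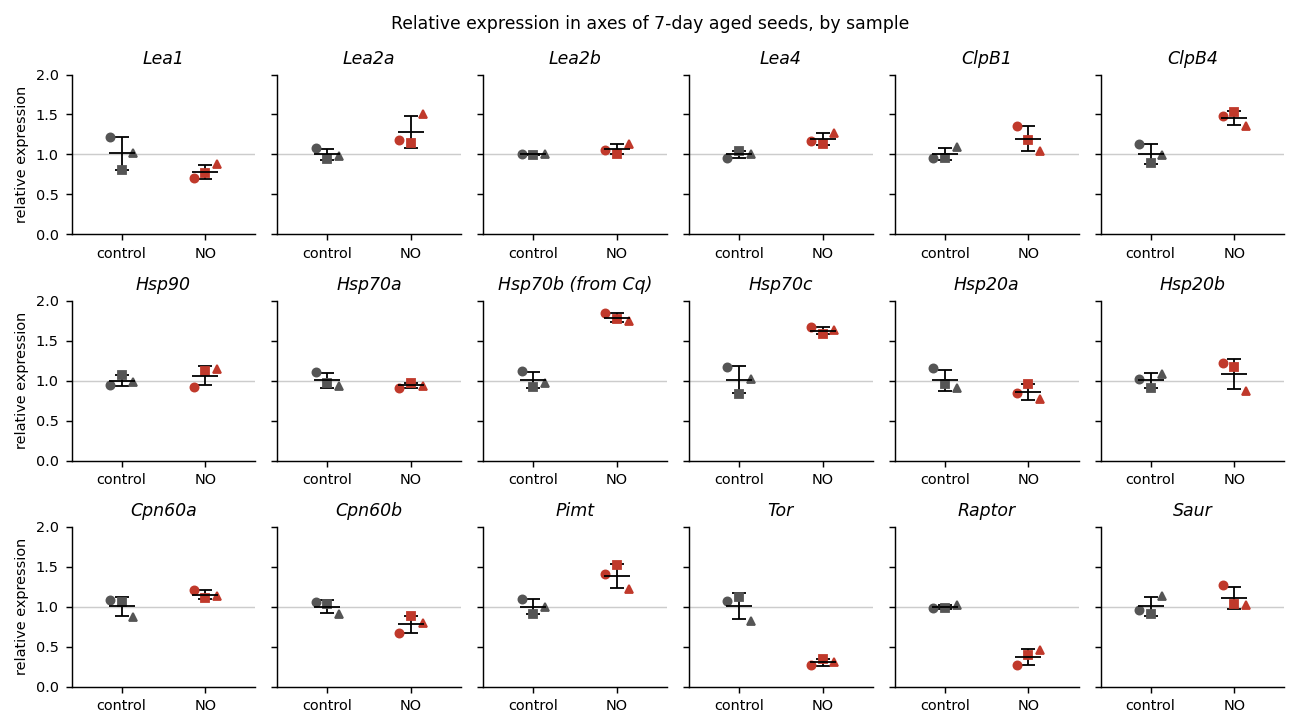
Relative expression (vertical axis, ratio to the 7-day control) of the 18 target genes in control (grey) and NO-treated (red) axes of 7-day aged seeds, with circles, squares and triangles for replicates 1, 2 and 3 and black bars for the mean ± SD of 3 samples. Tor and Raptor lie far below 1 in all NO samples and Hsp70c lies highest among the genes plotted from deposited values. Hsp70b is drawn from its cycles because its deposited values are those of the reference genes.

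Before the single genes are described, 2 features of the deposited values need to be given. First, the relative expression listed for Hsp70b is not a measure of Hsp70b. In 18 of 18 samples it equalled the geometric mean of the values listed for Sar1 and Pdi within a relative tolerance of 0.001, and the listed values of the other target genes did so in at most 1 sample. At 7 days the listed values were 0.939, 1.11 and 0.958 in the control and 1.13, 1.07 and 1.21 with NO. A second set of control values in the same table, 1.12, 0.921 and 0.973, did follow the cycles of Hsp70b, with a root mean square difference of 0.00168 on the log2 scale against 0.214 for the first set. Hsp70b is therefore described from its own cycles.

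Second, the target genes were not all scaled in the same way. Levels were re-derived from the deposited cycles, taking the mean of Sar1 and Pdi as reference and 1 doubling per cycle. For Saur, Pimt, ClpB1, ClpB4, Hsp70a, Hsp70c, Hsp20a and Hsp20b the deposited values at 7 days followed these levels, to within a root mean square difference of 0.00743 (log2). For 9 genes, namely the 4 Lea genes, both Cpn60 genes, Tor, Raptor and Hsp90, it was 0.255 to 0.291. Re-derivation moved the NO effect of these 9 genes down by nearly one amount, on average by -0.31 (from -0.35 to -0.28 between genes, SD 0.0251, log2). What scaled these 9 genes is not given in the sources used here, and a change in their direction or call between both scales is 1 shared shift, not 9 separate results.

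The reference genes themselves were compared at 7 days. Sar1, a small GTP-binding protein of vesicle transport, was detected at 22.75, 22.54 and 22.70 cycles in the control and at 22.64, 22.66 and 22.47 cycles with NO. These ranges overlapped, with a mean difference of -0.075 cycles (p = 0.5, exact permutation test, two-sided). Pdi, a protein disulfide isomerase of the endoplasmic reticulum, was detected at 24.47, 24.19 and 24.45 cycles in the control and at 24.03, 24.17 and 23.99 cycles with NO. Every NO sample lay below every control sample, although control replicate 2 was close to them. The mean difference of Pdi was -0.31 cycles (p = 0.1, exact permutation test, two-sided, the smallest p it allows). The distance between both reference genes was 1.71 ± 0.0509 cycles in the control and 1.48 ± 0.0740 with NO (SD, n = 3), without overlap. The median log2 fold change of the 18 genes was 0.12 on deposited values and -0.061 on re-derived levels (a shift of -0.19), where 9 genes moved down, 8 hardly moved and Hsp70b moved up. On levels derived from the cycles, another reference gene moves all target genes by the same amount. Against the median of -0.061 with both reference genes, it was higher with Sar1 alone (0.054) and lower with Pdi alone (-0.18).

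**Figure D2:**
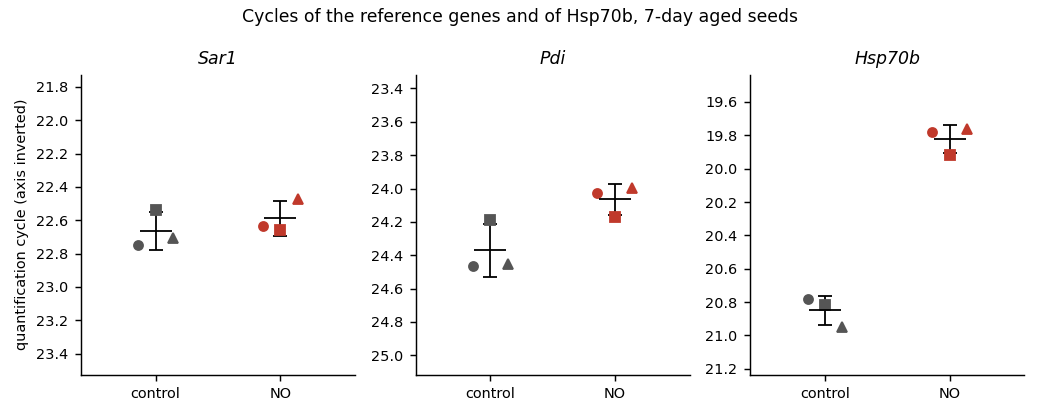
Quantification cycles (vertical axis, inverted so that more template is higher) of Sar1, Pdi and Hsp70b in control (grey) and NO-treated (red) axes of 7-day aged seeds, with one symbol per replicate and bars for mean ± SD of 3 samples. The panels span equal numbers of cycles: Hsp70b differs by about a whole cycle between groups, Pdi by -0.31 and Sar1 by -0.075.

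The largest response at 7 days was found in the growth regulators Tor and Raptor. The relative expression of Tor, the kinase, was 1.08, 1.13 and 0.826 in the control and 0.266, 0.353 and 0.305 with NO. All NO samples lay far below all controls, at a mean of 0.308 ± 0.0437 against 1.01 ± 0.161 (SD, n = 3). The log2 fold change of Tor was -1.71 (standard error 0.18, adjusted p = 9.1e-08 from limma). By cycles, Tor was reached at 25.9 to 26.2 in the control and at 27.7 to 28.1 with NO, and the re-derived log2 fold change was -2.04.

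Raptor, the scaffold that brings substrates to the kinase, was at 0.983, 0.991 and 1.03 in the control and at 0.268, 0.398 and 0.459 with NO. On deposited values the NO samples of Raptor were spread more widely than its controls (SD 0.0979 against 0.0233). On re-derived levels the controls were the more widely spread (SD 0.177, against 0.0380 with NO). That spread was not particular to Raptor. Re-derived levels of control replicate 2 lay above the control mean in 0 of 18 genes (median deviation -0.18, log2). Without a reference gene they did so in 8 of 18 (median -0.025). The groups of Raptor were far apart on both scales. The log2 fold change was -1.45 (standard error 0.16, adjusted p = 1.3e-07 from limma) and -1.73 on re-derived levels. The change of Tor relative to Raptor, taken within each sample, was -0.31 (95% interval -0.71 to 0.097), so a difference between both genes was not detectable with 3 samples a group. Saur, the auxin-induced gene, ranged from 0.908 to 1.14 in the control and from 1.03 to 1.27 with NO, and these ranges overlapped (log2 fold change 0.14, adjusted p = 0.297 from limma).

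Among the 10 chaperone genes, 2 were called higher and 1 lower on deposited values, with a median log2 fold change of 0.14 that includes the row listed as Hsp70b. On re-derived levels 3 were called higher and 1 lower and the median was 0.0072, against -0.061 for all 18 genes. With Hsp70b taken from its cycles, 4 of 18 genes (22.2%) were called higher at 7 days in place of 3.

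The ClpB genes encode disaggregases. The level of ClpB4, named after its mitochondrial counterpart in Arabidopsis, was 1.13, 0.893 and 0.989 in the control and 1.48, 1.53 and 1.36 with NO. Every NO sample was above every control sample of ClpB4. The mean of ClpB4 rose to 1.46 ± 0.0903 (SD, n = 3), a log2 fold change of 0.54 (standard error 0.12, adjusted p = 0.000668 from limma). ClpB1 was at 1.19 ± 0.157 with NO and 1.0 ± 0.0751 in the control, with overlapping samples (log2 fold change 0.25, adjusted p = 0.154 from limma). The ratio of ClpB1 to ClpB4 within a sample changed by -0.30 (95% interval -0.65 to 0.056), so no difference between both was detectable.

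The 3 Hsp70 genes did not move alike. Hsp70c, named after a mitochondrial Hsp70 of Arabidopsis, was at 1.17, 0.833 and 1.03 in the control and at 1.67, 1.59 and 1.63 with NO. The NO samples of Hsp70c lay within a narrow band well above the controls. Its log2 fold change was 0.70 (standard error 0.13, adjusted p = 0.000156 from limma), the largest increase among the deposited values.

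Hsp70b was reached at 20.78, 20.82 and 20.95 cycles in the control and at 19.78, 19.92 and 19.77 cycles with NO, about a whole cycle earlier in each NO sample. The re-derived level of Hsp70b was 1.12, 0.92 and 0.975 in the control and 1.85, 1.77 and 1.74 with NO, without overlap. This is a log2 fold change of 0.84 (standard error 0.13, adjusted p = 3.6e-06 from limma on re-derived levels), larger than that of Hsp70c on the same scale (0.70), though the within-sample ratio of Hsp70b to Hsp70c changed only by 0.13 (95% interval -0.10 to 0.37). With Sar1 alone the log2 fold change of Hsp70b was 0.95 and with Pdi alone 0.72, both past the threshold.

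Hsp70a was at 0.941 ± 0.0306 with NO and at 1.0 ± 0.0912 in the control (SD, n = 3), a log2 fold change of -0.088 (95% interval -0.33 to 0.15, adjusted p = 0.467 from limma). Its direction turned to 0.030 with Sar1 alone. Hsp90, the cytosolic chaperone of signalling proteins, was at 0.951, 1.07 and 0.978 in the control and at 0.922, 1.12 and 1.15 with NO. The lowest NO sample of Hsp90 lay below all controls and the other NO samples above them (log2 fold change 0.082, adjusted p = 0.467 from limma). On re-derived levels the log2 fold change was -0.21 (adjusted p = 0.191 from limma), and with Pdi alone it was -0.33 (adjusted p = 0.0450 from limma), so no direction can be given for Hsp90.

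The small heat shock genes did not pass the test on either scale, although Hsp20a did with Pdi alone (-0.35, adjusted p = 0.0450 from limma). Hsp20a, a class I gene, was at 0.858 ± 0.0953 with NO and 1.01 ± 0.131 in the control (log2 fold change -0.23, adjusted p = 0.167 from limma). Hsp20b, a class II gene, was at 1.09 ± 0.186 and 1.0 ± 0.0931 (log2 fold change 0.10, adjusted p = 0.467 from limma). In both genes the samples of the groups overlapped.

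The pair of mitochondrial chaperonin genes diverged. Cpn60a was at 1.08, 1.05 and 0.875 in the control and at 1.22, 1.11 and 1.13 with NO, so that its groups did not overlap on deposited values, but the log2 fold change of 0.20 missed the threshold (adjusted p = 0.154 from limma) and was -0.088 on re-derived levels. Cpn60b was at 1.07, 1.03 and 0.908 in the control and at 0.668, 0.88 and 0.793 with NO. All NO samples of Cpn60b lay below its controls, the highest of them only just. Its log2 fold change was -0.37 (standard error 0.13, adjusted p = 0.0288 from limma) and -0.71 on re-derived levels (adjusted p = 0.00022 from limma). The call on deposited values was lost without NO replicate 1 (adjusted p = 0.18 from limma), control replicate 1 (adjusted p = 0.12) or control replicate 2 (adjusted p = 0.0908). It was also lost in limma on linear values (adjusted p = 0.0612). The methods' t-test on linear values gave Cpn60b an adjusted p of 0.120, and an equal-variance test on log2 gave an adjusted p of 0.139. Without adjustment Cpn60b passed the methods' t-test but missed the threshold with the equal-variance test.

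Pimt, the protein repair enzyme, was at 1.10, 0.913 and 0.999 in the control and at 1.42, 1.52 and 1.23 with NO. All NO samples of Pimt lay above all controls. The mean rose to 1.39 ± 0.150 (SD, n = 3), a log2 fold change of 0.47 (standard error 0.13, adjusted p = 0.00487 from limma) and 0.46 on re-derived levels. With the methods' t-test on the linear values, which uses only the 3 samples a side, the adjusted p of Pimt was 0.0632. Without adjustment Pimt passed that test.

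None of the 4 Lea genes passed the test on deposited values over all 18 samples. Their median log2 fold change was 0.17 on deposited values and -0.12 on re-derived levels, so no direction can be given for the group. Lea1 was at 1.22, 0.804 and 1.02 in the control and at 0.708, 0.764 and 0.881 with NO. Control replicate 2 lay among the NO samples of Lea1, and its controls were the most widely spread of all genes (SD 0.210). The log2 fold change of Lea1 was -0.36 (standard error 0.22, adjusted p = 0.167 from limma), while on re-derived levels it was -0.70 (adjusted p = 0.0147 from limma) and passed the test.

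Lea4 was at 0.951, 1.04 and 1.01 in the control and at 1.17, 1.13 and 1.27 with NO. Lea2b was at 1.003, 0.995 and 1.003 in the control and at 1.06, 1.01 and 1.14 with NO. In both genes the NO samples lay above the controls, by little in Lea2b. Neither passed the test, with log2 fold changes of 0.25 for Lea4 (adjusted p = 0.144 from limma) and 0.092 for Lea2b (adjusted p = 0.467), and both turned on re-derived levels, to -0.037 and -0.20. Lea2a was at 1.28 ± 0.200 with NO against 1.0 ± 0.0695 in the control (log2 fold change 0.34, adjusted p = 0.154 from limma, and 0.043 on re-derived levels).

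**Figure D3:**
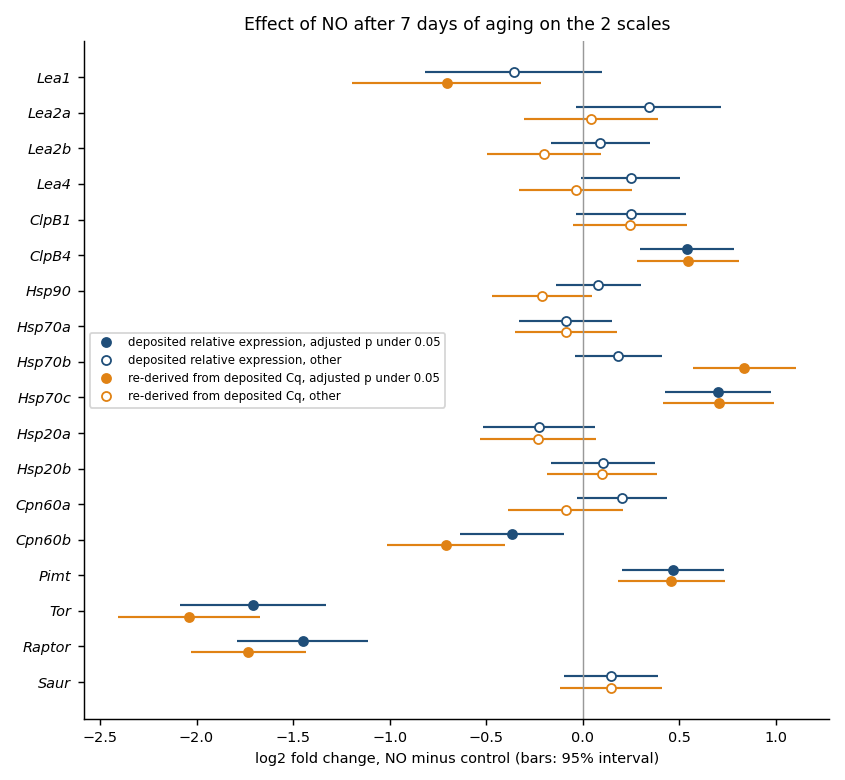
Log2 fold change of NO against control at 7 days (horizontal axis, bars are 95% intervals from limma) for each gene on deposited relative expression (blue) and on levels re-derived from the cycles (orange), with filled points where the adjusted p is under 0.05. The scales coincide for 8 genes, differ by about -0.31 for 9 and differ the other way for Hsp70b, whose deposited row holds the reference genes' mean.

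Because the reference genes bear on the calls, genes of 1 family were also compared within each sample, by the difference of their cycles, which needs no reference. Over 13 such pairs, 3 (23.1%) changed with NO at an adjusted p under 0.05 in limma, adjusted over the 13 pairs. The log2 ratio of Hsp70a to Hsp70b, set to 0 at the control mean, was -0.0094, 0.092 and -0.083 in the control and -1.02, -0.87 and -0.88 with NO. Both groups were tight and far apart, and the change was -0.92 (standard error 0.12, adjusted p = 1.3e-05 from limma).

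The ratio of Hsp70a to Hsp70c was -0.079, 0.24 and -0.16 in the control and -0.87, -0.71 and -0.79 with NO, a change of -0.79 (adjusted p = 0.000222 from limma). Hsp70a was thus lower relative to each of the other Hsp70 genes in every NO sample. The ratio of Cpn60a to Cpn60b was 0.012, 0.038 and -0.050 in the control and 0.91, 0.37 and 0.57 with NO. The NO samples of this ratio were spread widely but all lay above the controls, with a change of 0.62 (standard error 0.14, adjusted p = 0.00121 from limma).

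Lea1 fell relative to Lea2a by -0.75 (95% interval -1.37 to -0.12) and relative to Lea4 by -0.67 (95% interval -1.28 to -0.054), which did not pass the test after adjustment (adjusted p = 0.0719 and 0.0899 from limma). Without control replicate 2 both passed it (adjusted p = 0.0413 for each), and 6 pairs were then called. The other 8 pairs changed by -0.50 to 0.24.

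**Figure D4:**
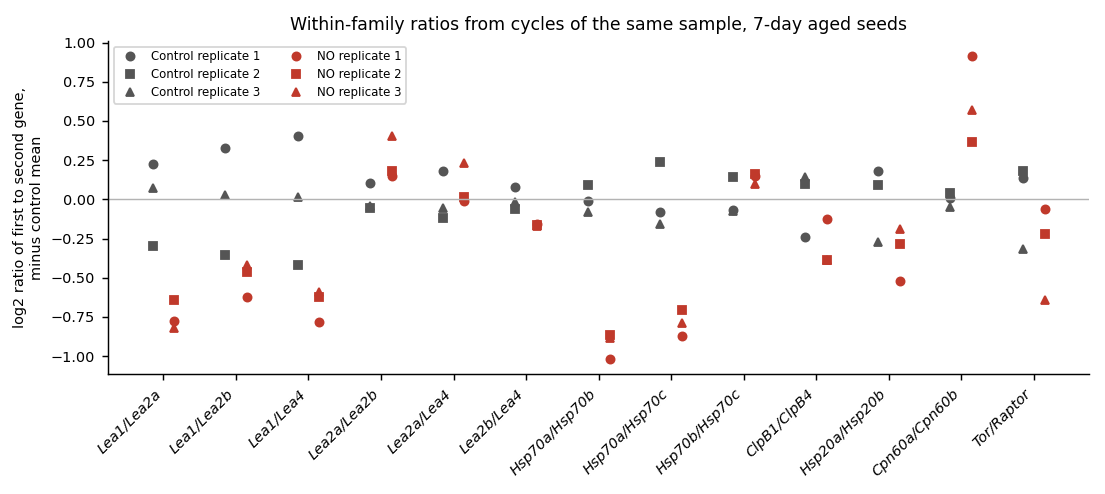
Log2 ratio of the first to the second gene of a family pair in the same sample, minus the mean of the controls (vertical axis), for 13 pairs in control (grey) and NO-treated (red) axes of 7-day aged seeds, with one symbol per replicate. The 3 called pairs, Hsp70a/Hsp70b, Hsp70a/Hsp70c and Cpn60a/Cpn60b, show no overlap of groups.

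Whether the response at 7 days was particular to mild aging was asked by testing the difference between the NO effects at different aging times, each against its own controls. On deposited values the effect at 7 days differed from that at 14 days in 11 of 18 genes (61.1%, limma interaction, adjusted over 18 genes). Tor was not among them: its log2 fold change was -1.71 at 7 days, -2.03 at 14 days and -1.53 at 21 days, and the difference between 7 and 14 days was 0.33 (95% interval -0.21 to 0.86) and that between 7 and 21 days -0.18 (95% interval -0.71 to 0.36). When each sample was centred on the 18 genes, the latter difference was -0.63 and passed the test (adjusted p = 0.0145 from limma). Raptor was lower at 7 and 21 days (-1.45 and -1.92) but not called at 14 days (-0.17, adjusted p = 0.392 from limma). The difference of Raptor between 7 and 14 days was -1.28 (standard error 0.23, adjusted p = 8.0e-05 from limma).

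The increase of Pimt was found at 7 days alone among the 3 times. Its log2 fold change was 0.47 at 7 days, -2.44 at 14 days and -0.11 at 21 days, and its effect at 7 days differed from both (2.91, adjusted p = 3.5e-12, and 0.57, adjusted p = 0.0259, from limma). The second of these differences lost its call when 7-day NO replicate 2 (adjusted p = 0.0569 from limma), 7-day control replicate 2 (0.0555), 7-day control replicate 3 (0.0508) or 21-day NO replicate 1 (0.0781) was left out. It was also lost with Sar1 alone (0.57, adjusted p = 0.0894) and when centred on the 18 genes (0.19, adjusted p = 0.177).

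Hsp70c rose far more at 14 days (log2 fold change 3.37) than at 7 days (0.70) and fell by 1.26 at 21 days, so that its effect at 7 days lay between the others (differences -2.67, adjusted p = 1.8e-11, and 1.97, adjusted p = 1.1e-08, from limma). The 14-day controls of Hsp70c held the latest cycle of the series (30.76). Its cycles averaged 30.6 in the control and 27.1 with NO at 14 days, both later than at 7 days (25.2 and 24.4). ClpB4 was higher at 7 and 21 days (0.54 and 0.37) and not called at 14 days (-0.051), and its difference between 7 and 14 days was 0.59 (adjusted p = 0.00542 from limma). With Pdi alone this difference was 0.35 and did not pass (adjusted p = 0.121).

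From its cycles, Hsp70b rose at 7 days (0.84), did not pass the test at 14 days (-0.075, adjusted p = 0.637 from limma) and fell at 21 days (-2.52, adjusted p = 3.7e-16 from limma). The difference of Hsp70b between 7 and 14 days was 0.91 (standard error 0.18, adjusted p = 0.00011 from limma on re-derived levels). It is not among the 11 genes called on deposited values. The difference of Hsp70b between 7 and 21 days, 3.36 (standard error 0.18, adjusted p = 1.7e-15 from limma on re-derived levels), was the largest of all genes for that comparison. On deposited values 3 of 18 genes (16.7%) differed between 7 and 21 days, Pimt, Hsp70a and Hsp70c, and with Hsp70b from its cycles 7 of 18 (38.9%) did.

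Across the 18 genes, the sign of the NO effect at 7 days was the same as at 14 days in 8 genes and as at 21 days in 11 on deposited values, and in 7 and 12 on re-derived levels. Pearson's r of the deposited log2 fold changes was 0.34 between 7 and 14 days and 0.67 between 7 and 21 days. Without Tor and Raptor it was 0.077 and -0.0018. On re-derived levels, which hold the measured Hsp70b, r was 0.34 and 0.35, or 0.090 and -0.33 without Tor and Raptor. These correlations are descriptions over genes that share samples within a time and are not independent.

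**Figure D5:**
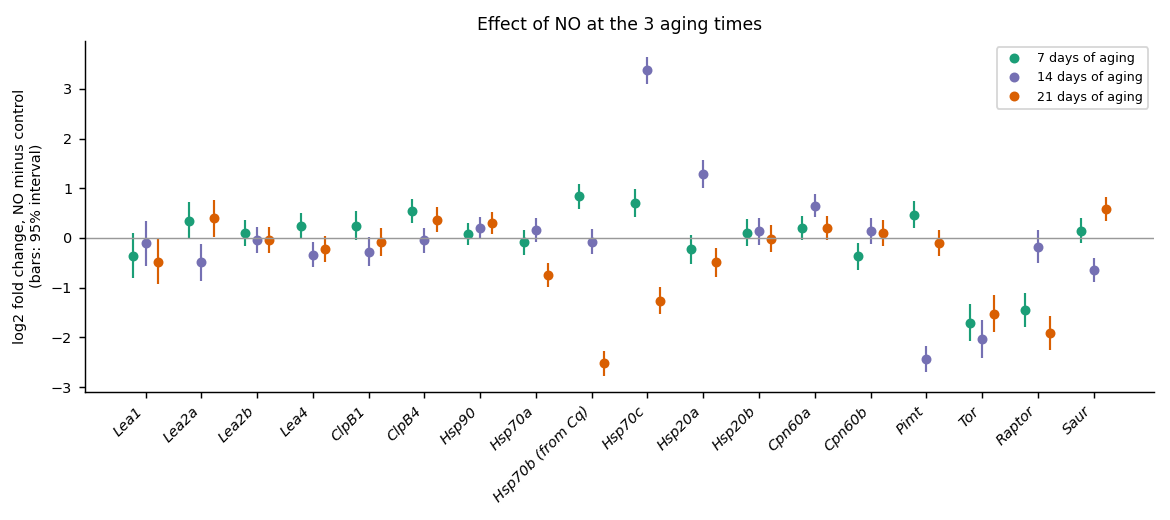
Log2 fold change of NO against control (vertical axis, bars are 95% intervals from limma) of each gene at 7 (green), 14 (violet) and 21 days (orange) of seed aging, with Hsp70b from its cycles and the other genes from deposited relative expression. Tor is low at all 3 times, Raptor at 7 and 21 days, and Pimt and Hsp70b lie above 0 with their whole interval at 7 days only. The points of Lea2b, Lea4 and ClpB1 are also above 0 at 7 days only, with 7-day intervals that include 0.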

How the data were processed

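Total RNA (200 ng) was reverse transcribed by the authors and amplified with SYBR Green, in 3 biological replicates with 3 technical repetitions each. Deposited cycles, and the deposited relative expression, set to about 1 in the control of each aging time, were used. As described above, the relative expression followed the deposited cycles of the reference genes in 8 target genes only. Methods name 2 reference genes and a geometric mean factor. The deposited table of the authors' own fold changes was not used. Columns name the group, and a row label gives the replicate.

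Values were tested as log2 of the ratio, without a pseudocount or filter, with limma 3.58.1 in R 4.3.3 (moderated linear model, 6 groups). The same script was tested on simulated data. Cycles over the 6 samples ran from 19.8 to 28.1. Amplification efficiencies are not given in the sources used here, so re-derived levels assume 1 doubling per cycle. All 18 target genes are named. The values of every sample are given for genes past the threshold or differing in call or direction between both scales. Genes, families and pairs were chosen with earlier results of these data known. Alternatives were other reference genes, scales, tests, sample sets and leaving out each replicate. The use of Hsp70b from its cycles was added after seeing the data.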

Additional observations from a re-analysis of the deposited data

Results flagged for a closer look

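The NO effect at 7 days differed from that at a longer aging time in the following genes, by the limma interaction on deposited relative expression, as the log2 effect at 7 days minus that at the longer time. Against 14 days the difference was above 0 for Pimt (2.91), Lea2a (0.835), Saur (0.788), ClpB4 (0.591), Lea4 (0.585) and ClpB1 (0.523). It was below 0 for Hsp70c (-2.67), Hsp20a (-1.51), Raptor (-1.28), Cpn60b (-0.507) and Cpn60a (-0.447). Hsp70b is missing here because its deposited row holds the reference genes' mean. Taken from its cycles, it also differed (0.91, adjusted p = 7.4e-05 from limma). Hsp20a rose by 1.29 at 14 days and was not called at 7 days, and Saur fell by 0.64 at 14 days and was not called at 7 days. The call of ClpB1 was lost when any of 4 samples was left out, namely 7-day NO replicate 1 (adjusted p = 0.0748 from limma), 7-day control replicate 1 (0.0515), 14-day NO replicate 3 (0.0999) and 14-day control replicate 2 (0.0728). Cpn60a lost its call when 7-day control replicate 1 (adjusted p = 0.0515 from limma) or 14-day control replicate 2 (0.0588) was left out. Cpn60b did so for 7-day NO replicate 1 (adjusted p = 0.0716 from limma), 7-day control replicate 1 (0.0515) and 14-day NO replicate 1 (0.0676). With Pdi alone the calls of Lea2a (0.36), ClpB4 (0.35), ClpB1 (0.27) and Lea4 (0.16) were lost, on re-derived levels that of Lea4 (0.40), and with Sar1 alone those of Cpn60a (-0.42) and Cpn60b (-0.53).

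Against 21 days the difference was above 0 for Hsp70c (1.97), Hsp70a (0.663) and Pimt (0.574). Centred on the 18 genes, Hsp70a (0.35, adjusted p = 0.0825 from limma) and Pimt (0.19, adjusted p = 0.177) lost their calls. Hsp70a fell by 0.75 at 21 days and was not called at 7 days. Saur (-0.44, adjusted p = 0.0536 from limma), Lea4 (0.47, adjusted p = 0.0536) and Cpn60b (-0.47, adjusted p = 0.0538) lay just outside the threshold, and each passed it with Hsp70b taken from its cycles (adjusted p = 0.0472 for each).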

How the results depend on the processing

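At 7 days Tor, Raptor, ClpB4 and Hsp70c kept their direction and call under every alternative run. The number of genes higher was 3, and 7 without a reference gene or centred on the 18 genes (7 higher and 3 lower, and 7 higher and 4 lower), which added Saur, ClpB1, Hsp70b and Hsp20b. The number lower was 3, and 6 with Pdi alone (4 higher and 6 lower, with Hsp90, Hsp20a and Lea1 among the lower). With Sar1 alone and on re-derived levels 4 were higher and 4 lower, adding Hsp70b and Lea1, and with the 7-day samples alone 4 and 4, adding Lea2a and Lea1. Leaving out 1 replicate gave 3 higher and 2 to 3 lower. The cause was not tested. Pimt and Cpn60b missed the threshold after adjustment with the methods' t-test (adjusted p = 0.0632 and 0.120). Both also missed it with an equal-variance test on log2 (adjusted p = 0.0566 and 0.139).

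Directions of genes not called on deposited values turned as follows (log2), past the threshold only for Hsp90 with Pdi alone. On re-derived levels Lea2b was -0.20, Lea4 -0.037, Hsp90 -0.21 and Cpn60a -0.088. With Sar1 alone Lea2b was -0.086, Hsp90 -0.097 and Hsp70a 0.030. With Pdi alone Lea2a was -0.072, Lea2b -0.32, Lea4 -0.15, Hsp90 -0.33, Cpn60a -0.20 and Hsp20b -0.016. Without a reference gene Lea2b was -0.011, Hsp90 -0.022 and Hsp70a 0.10, and centred Lea2b was -0.037, Hsp90 -0.048 and Hsp70a 0.079. On deposited values the ratio of Hsp70b to Hsp70c turned to -0.52, because the row listed for Hsp70b holds the reference genes' mean.

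The number of pairs called was 3, and 6 with the 7-day samples alone, and 3 to 6 leaving out 1 replicate. The number of genes whose effect differed from 14 days was 11, and 8 to 11 leaving out 1 replicate. Hsp70b gained a call there when taken from its cycles (0.91). Tor turned to -0.12 with Pdi alone. The number that differed from 21 days was 3, and 5 on re-derived levels, with Pdi alone, on linear values and with a pseudocount of 0.1, 10 without a reference gene, 8 centred, 7 with Hsp70b from its cycles, and 2 to 5 leaving out 1 replicate (5 without 7-day NO replicate 1 and without 21-day NO replicate 3). ClpB4 turned to -0.20 when centred. With the replicate number as a block, 3 genes were higher and 3 lower at 7 days, 11 genes differed from 14 days, 6 from 21 days (Saur, Lea4 and Cpn60b added), and 3 pairs were called. The deviations of same-numbered samples at 7 days correlated at -0.054, 0.15 and -0.15 on deposited values. On re-derived levels the correlations were -0.13, 0.27 and 0.15. Such correlations over genes cannot tell whether same-numbered samples were handled together. The numbers were not taken as pairs in the main fit. A filter on genes with a mean Cq over 30 removed no gene. The number of replicates limits the precision.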
